A study of Mus musculus with 68 samples.

Results

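The genes described here are the nutrient transporters of 10 solute carrier (SLC) families, which move amino acids, peptides, sugars, vitamins, carboxylates, fatty acids and iron across membranes. They were taken by symbol from the families Slc1a, Slc2a, Slc5a, Slc6a, Slc7a, Slc15a, Slc16a, Slc27a and Slc38a, plus Slc40a1, and not all symbols of these families were used here. No measured value enters this rule, which was chosen with earlier results of these data known. In the 8 expression tables this gave 105 symbols of 24941. FPKM, the unit of the tables, are fragments per kilobase of transcript, scaled to the mapped fragments. A gene was kept where 2 or more libraries of a table reached 1 FPKM, which held for 65 members and for 15041 of all genes. The other 40 members were not kept in any table. Only 7 members were kept in all 8 tables and 11 were kept in 1 table only. Among the 105 symbols, 3 name no transporter: Slc7a6os, a neighbour of Slc7a6 whose protein is linked to nuclear import of RNA polymerase, Slc2a4rg-ps, a pseudogene, and Slc6a19os, a transcript opposite Slc6a19 that was never kept. Kept members per family were 11 of 16 in Slc7a, 10 of 20 in Slc6a, 9 of 14 in Slc16a, 8 of 13 in Slc5a, 7 of 13 in Slc2a, 7 of 10 in Slc38a, 5 of 6 in Slc27a, 4 of 7 in Slc1a, 3 of 5 in Slc15a and the single Slc40a1.

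SLC transporters are membrane proteins that carry solutes by facilitated diffusion, by exchange or by coupling to an ion gradient. Preimplantation mouse embryos are known to rely first on pyruvate and lactate and to increase their use of glucose towards the blastocyst stage. Oocytes and early embryos are also known to take up glycine, through the transporter encoded by Slc6a9, as an organic osmolyte that controls cell volume.

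The study deleted Ezhip, an X-linked gene whose product inhibits the H3K27 methyltransferase PRC2, and compared RNA of oocytes and embryos by genotype. Oocytes labelled FGO came as wild type (WT, 2 libraries), Ezhip Het (2) and Ezhip KO (3). Embryos came as WT, Ezhip mHet and Ezhip mKO, labels whose prefix is not spelled out. The 1-cell (PN5) and late 2-cell stages had 2 libraries a genotype, and the 8-cell stage had 2 WT, 1 mHet and 3 mKO. Blastocysts at embryonic day E3.5 came in a first table of 2 libraries a genotype and a second table of 5. At E4.25 there were 4 WT, 4 mKO and 2 mHet libraries, and the mHet pair held identical values and was counted as 1 sample. E6.5 embryos were split into epiblast and extraembryonic ectoderm (ExE, the trophoblast layer next to the epiblast), with 2 libraries a genotype and tissue. No strain, sex or number of pooled oocytes or embryos is given in the labels. Whether libraries of a group came from separate animals is not stated, and the p-values therefore measure a spread between libraries that may be technical.

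Ezhip itself, listed as AU022751, stood at 546 and 297 FPKM in the WT oocytes, 143 and 84.1 in Het and at most 0.175 in KO. In 1-cell embryos it was 251 and 368 in WT and at most 0.933 in mKO, and from the 8-cell stage on it was at most 1.5 in all libraries, so later labels cannot be checked by it. Genes at or above 1 FPKM ranged from 4940 to 9804 in number across the 67 libraries used. The share of the summed FPKM listed for the ribosomal repeat transcript Rn45s was 0.209% to 5.75% up to the late 2-cell stage and 9.19% to 69.5% in the second E3.5 table. The stage labels were checked against markers by summed FPKM. In the oocyte libraries 5 oocyte markers summed to 5710 to 13500 and 6 markers of follicle somatic cells to 1.01 to 14.9, with Amh at 0 in all of them. At the late 2-cell stage 4 markers of that stage summed to 60.7 to 195, beside at most 5.01 in 1-cell and 4.96 in 8-cell embryos. At E6.5 the sums were at most 4.23 for 4 markers of maternal stroma and 1.09 for 3 blood markers. Read depth is unknown, since FPKM hold no totals. Tables were normalized separately, so levels at different stages are set side by side without a test.

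The kept members were sorted by the stage of their highest mean level in WT libraries, which gives successive sets for any genes. The split was not set against all genes. Some of these highest means are near the floor, such as Slc5a10 at 0.351 and Slc2a9 at 0.576 FPKM. Of the 65 kept members, 21 were highest in oocytes or 1-cell embryos, 13 at the late 2-cell or 8-cell stage, 13 in blastocysts at E3.5 or E4.25 and 18 at E6.5. The summed FPKM of all transporters was 150 ± 65.8 (SD, n = 2) in oocytes and 169 ± 31.0 (n = 2) in 1-cell embryos. It was 249 ± 14.1 (n = 2) at the late 2-cell and 383 ± 104 (n = 2) at the 8-cell stage. Blastocysts gave 315 ± 142 (n = 2) and 143 ± 37.1 (n = 5) in the first and second E3.5 tables and 189 ± 151 (n = 4) at E4.25. The sums were 643 ± 189 (n = 2) in epiblast and 534 ± 53.0 (n = 2) in ExE. Both E6.5 means of summed FPKM were above those of every earlier stage, and the second E3.5 table had the lowest. This order depends on the scale, since the FPKM of all genes summed to different totals. As a share of all FPKM the transporters made up 0.144% at E4.25 and 0.127% in ExE, and the oocyte share of 0.045% was below the 0.0656% of the second E3.5 table. The leading family also changed. Slc6a, carriers of neurotransmitters and neutral amino acids, gave 35.4% of the sum in oocytes and 38.4% in 1-cell embryos. Slc5a, sodium-coupled carriers of sugars, inositol and vitamins, gave 45.1% at the 8-cell stage. Slc2a, the facilitative glucose transporters, gave 39.3% in epiblast and 55.8% in ExE.

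**Figure D1:**
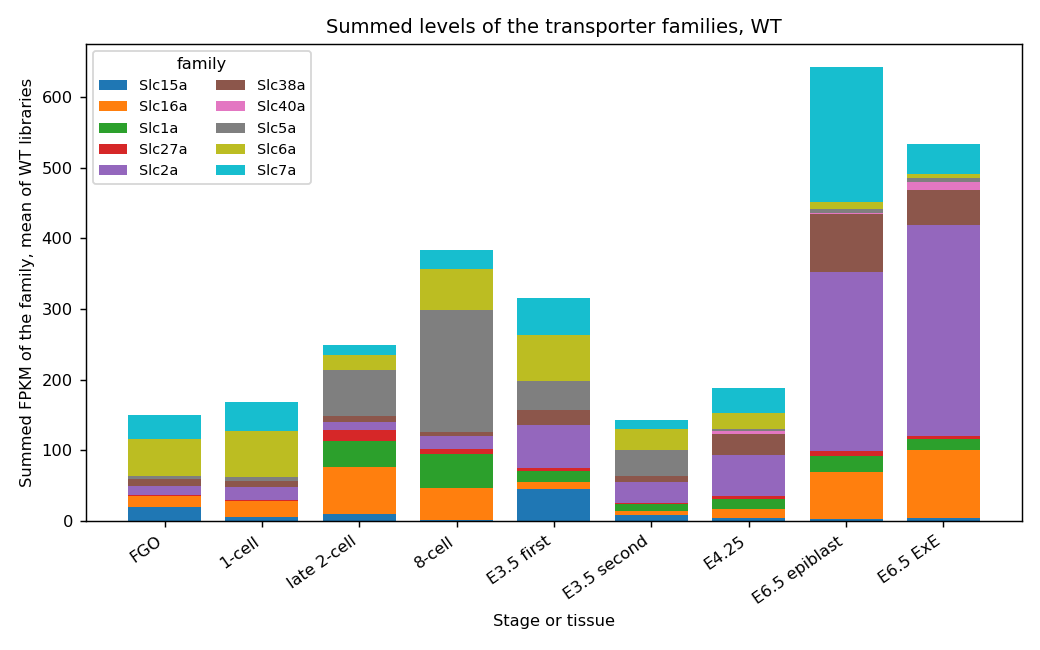
Summed FPKM (y axis, linear, from 0) of the 10 transporter families in WT libraries at each stage or tissue (x axis); each stacked bar is the mean over the WT libraries of that stage. On this scale, which is not corrected for the unequal FPKM totals of the tables, the bars are highest at E6.5, where Slc2a makes up 39.3% of the epiblast and 55.8% of the ExE bar, and Slc5a makes up 45.1% of the 8-cell bar.

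**Figure D2:**
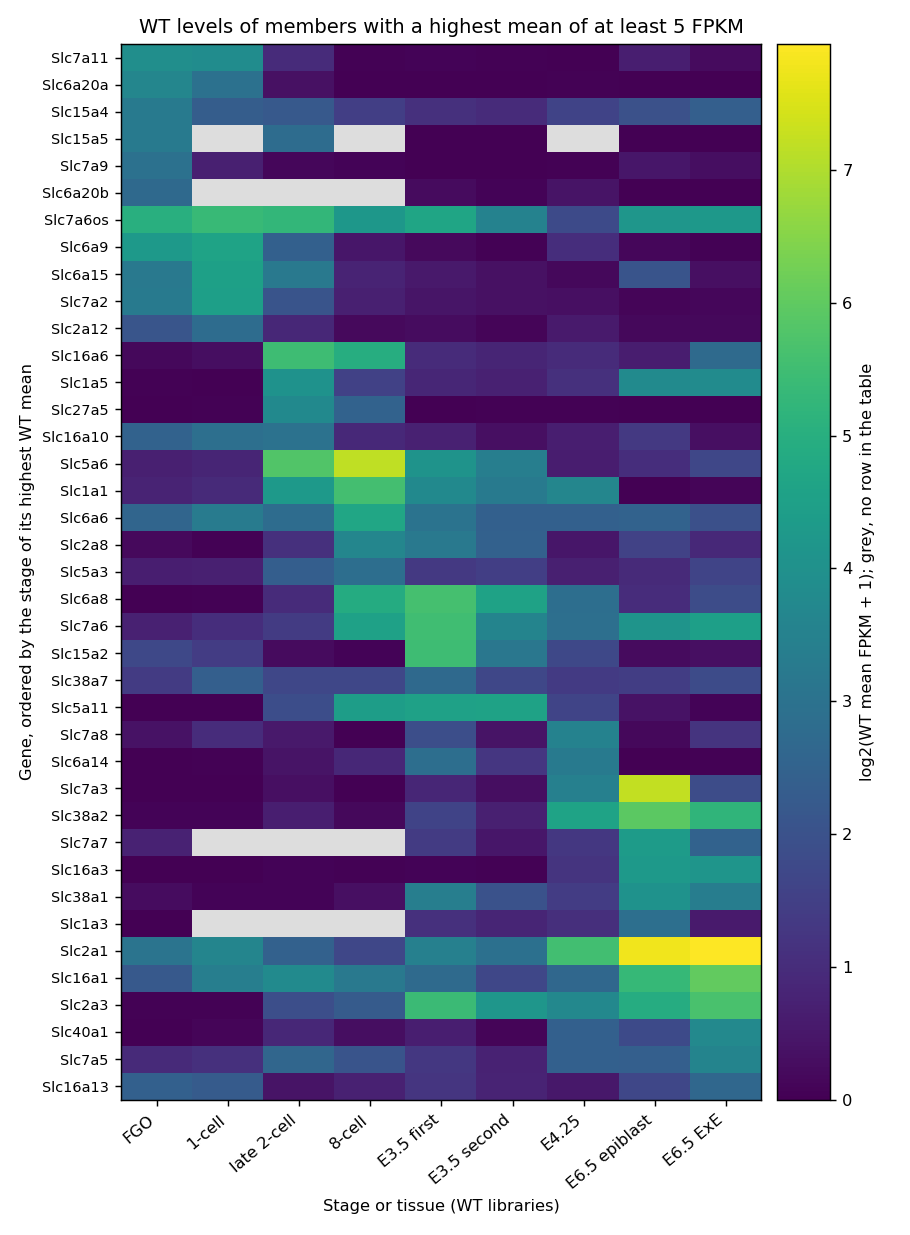
Colour gives log2(WT mean FPKM + 1) for the 39 members whose highest WT mean was at least 5 FPKM (rows, ordered by the stage of that highest mean) at 9 stages or tissues (columns); grey marks a gene with no row in a table. Through this row order the bright blocks move from the oocyte and 1-cell columns at the top to the E6.5 columns at the bottom.

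Amino acid carriers led the oocyte and 1-cell set. Slc6a9, the glycine transporter, stood at 18.8 and 18.1 FPKM in WT oocytes and 16.8 and 30.0 in WT 1-cell embryos, then at 5.00 and 3.79 at the late 2-cell stage and 0.502 and 0.280 at the 8-cell stage. Every WT oocyte and 1-cell library was above every later WT library. Slc7a11, the exchanger that takes up cystine for glutathione synthesis, was at 11.3 and 17.4 in oocytes and 13.2 and 14.2 in 1-cell embryos, against 1.10 and 0.804 at the late 2-cell stage. Slc6a20a, a carrier of proline and other imino acids, was at 6.68 and 16.6 in oocytes and listed at 0 in both WT 8-cell libraries. The levels of these 3 genes fell to low values across the first cleavages in both WT libraries of each stage.

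Other members of this set were higher at the 1-cell stage than in oocytes. Slc7a2, a carrier of arginine and lysine, was at 6.64 and 10.6 FPKM in WT oocytes and 19.1 and 23.5 in WT 1-cell embryos. Slc6a15, which carries branched-chain amino acids and proline, was at 3.61 and 12.9 in oocytes and 19.3 and 24.1 in 1-cell embryos, and still at 8.00 and 8.54 at the late 2-cell stage. For both genes the WT libraries of the 2 stages did not overlap, but the tables are separate and this difference was not tested. Slc7a6os, which is not a transporter, had the highest FPKM of all members in oocytes (24.8 and 38.1) and 1-cell embryos (34.4 and 45.6). Slc15a5 was at 5.75 and 11.3 in oocytes and has no row in the 1-cell table, so its stage of highest level rests on fewer tables.

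A second set was low in oocytes and high from the late 2-cell stage, when the embryo's own genome is transcribed. Slc5a6, the sodium-dependent carrier of biotin and pantothenate, was at 0.607 and 0.610 FPKM in WT oocytes, 0.515 and 1.02 in 1-cell, 58.6 and 49.6 in late 2-cell and 131 and 159 in 8-cell embryos. In the 8-cell table its WT mean ranked 476 of 8319 genes, the highest rank of any member at that stage, and it made up 37.9% of the transporter sum. It then stood at 6.54 and 25.3 in the first E3.5 table and at 0.0121 to 1.21 in the 4 WT libraries of E4.25. Slc16a6, a carrier of ketone bodies, was at 0.138 and 0.319 in 1-cell, 48.3 and 39.9 in late 2-cell, 19.3 and 40.5 in 8-cell and 0.868 and 1.06 in E3.5 embryos of the first table. Both genes were thus high at the late 2-cell and 8-cell stages, with no overlap between those WT libraries and the WT libraries of the 1-cell stage and E3.5.

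Slc1a1, a glutamate and aspartate carrier, was at 19.8 and 17.7 FPKM at the late 2-cell stage and 27.4 and 65.0 at the 8-cell stage, and was listed at 0 in both WT epiblast libraries. Slc1a5, a carrier of glutamine and other neutral amino acids, had 2 high phases: 15.9 and 15.3 at the late 2-cell stage and 9.28 and 16.8 in epiblast, with 2.40 and 1.39 at the 8-cell stage between them. Slc27a5, an acyl-CoA synthetase of the fatty acid transport family known from liver bile acid metabolism, was at 10.8 and 14.7 at the late 2-cell and 4.71 and 4.57 at the 8-cell stage. It was at most 0.164 FPKM in every library of the other stages. Slc6a6, the taurine transporter, was kept at every stage and highest in 8-cell embryos (21.1 and 29.3).

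The blastocyst set held carriers of creatine, dipeptides and inositol. Slc6a8, the X-linked creatine transporter, was listed at 0 in both WT oocyte libraries, at 0.290 and 1.64 FPKM at the late 2-cell stage, 27.0 and 30.4 at the 8-cell stage and 39.7 and 55.0 in the first E3.5 table. In the second E3.5 table its 5 WT libraries lay between 20.4 and 27.9. Slc7a6, which exchanges cationic for neutral amino acids, was at 12.2 and 32.2 at the 8-cell stage and 28.8 and 60.2 in the first E3.5 table. Slc5a11, a sodium-coupled inositol carrier, was at 17.8 and 27.1 in the first E3.5 table and at 12.7 to 37.3 in the second, where its WT mean was the highest of the members. Slc2a3, a high-affinity glucose transporter, was at most 0.0818 FPKM in WT oocytes and 1-cell embryos and at 20.9 and 62.2 in the first E3.5 table. Its highest WT mean was in ExE (49.6 FPKM), which puts it in the E6.5 set. WT means of Slc6a8, Slc7a6 and Slc2a3 were lower in the second E3.5 table than in the first. The Rn45s share of its WT libraries was 11.3% to 41.8%, beside 21.0% and 3.66% in the first, and the part of that share in the difference was not tested.

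At E6.5 a glucose carrier had the highest level of the members in both tissues. In WT epiblast Slc7a, carriers of cationic and large neutral amino acids, gave 29.8% of the transporter sum, Slc38a 12.7% and the monocarboxylate family Slc16a 10.4%, and in WT ExE these families gave 7.96%, 9.24% and 18.0%. Slc2a1, the main facilitative glucose transporter of embryonic cells, was at 5.98 and 8.81 FPKM in WT oocytes, 177 and 263 in WT epiblast and 215 and 277 in WT ExE. Its WT mean ranked 355 of 11028 genes in epiblast and 320 of 11028 in ExE. Slc16a1, a carrier of lactate, pyruvate and ketone bodies, was at 30.7 and 47.9 in WT epiblast and 59.4 and 68.9 in WT ExE. Slc38a2, a sodium-coupled carrier of small neutral amino acids, was at most 3.12 FPKM in the WT libraries up to E3.5 and at 60.7 and 60.8 in WT epiblast. Slc16a3, which exports lactate from glycolytic cells, was at 1.81 in one WT epiblast library and 35.8 in the other, so its 2 WT libraries lay far apart. Slc38a1, a relative of Slc38a2, was kept from E3.5 on and stood at 14.9 and 16.1 in WT epiblast.

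The E6.5 tissues differed in most of the members tested. Of the 36 members tested, 9 were higher and 14 lower in ExE than in epiblast (6 libraries each, genotypes pooled with equal weight; limma on log2(FPKM + 1), Benjamini-Hochberg adjusted p under 0.05 over all 11028 genes). That is 63.9% of the members, beside 33.5% of all genes (14.2% higher and 19.4% lower). A gene could pass the filter through the libraries of a single tissue, as for example Slc27a2, Slc6a15, Slc1a3 and Slc16a5 did. The counts of members and of all genes include such genes. The median log2 difference was -0.05 over the members and -0.11 over all genes. Fold changes on this scale understate the change of genes with low FPKM. In 16 of the 36 members the 6 libraries of one tissue did not overlap those of the other, and all 16 were among the 23 called. This count includes members kept through a single tissue. It is not set against all genes, so it shows nothing particular to the members. In bulk samples, fewer cells of a type and less RNA per cell cannot be told apart. The tissue labels were checked against markers: the summed FPKM of 5 epiblast markers was 619 to 926 in epiblast and 205 to 328 in ExE, and that of 6 ExE markers was 7.71 to 53.1 in epiblast and 239 to 403 in ExE.

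Slc7a3, an X-linked carrier of arginine, lysine and ornithine, differed most. It ranged from 107 to 191 FPKM in epiblast (median 142) and from 0.973 to 3.12 in ExE (median 1.43), so every epiblast library was far above every ExE library. The log2 difference was -5.80 (SE 0.24, limma adjusted p = 4e-08), and means were 146 ± 38.6 and 1.68 ± 0.86 (SD, n = 6 each). In WT epiblast its mean was below that of Slc2a1 alone among the members, and it ranked 503 of 11028 genes. Slc7a3 overlaps Snx12 in the RefSeq annotation, and strand use in counting is not given.

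Other carriers of amino acids were also higher in epiblast. Slc1a3, a glutamate carrier best known from glia, was at 3.57 to 7.82 FPKM (median 5.51) in epiblast and 0 to 0.597 (median 0.397) in ExE, a log2 difference of -2.31 (SE 0.16, limma adjusted p = 8.21e-07). Slc6a15 was at 2.43 to 7.36 (median 4.26) in epiblast and 0 to 0.421 in ExE (log2 -2.22). Slc7a7, an exchanger of cationic for neutral amino acids, was at 7.97 to 26.0 (median 16.2) in epiblast and 0.891 to 4.84 (median 3.37) in ExE (log2 -2.17). These 3 genes showed no overlap between the tissues. Slc16a10, an aromatic amino acid carrier, Slc1a4, a carrier of alanine, serine and cysteine, and Slc38a3, a glutamine carrier, followed with log2 differences of -1.38, -0.94 and -0.82, and 1 or more libraries of Slc1a4 and Slc38a3 overlapped. Slc38a1 and Slc38a2 had log2 differences of -0.65 and -0.66 (limma adjusted p = 0.0352 and 0.0394), with overlapping libraries, and both lost the call when single libraries were left out (adjusted p up to 0.11 and 0.133).

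Epiblast also held more of carriers for other solutes. Slc27a2, a very long chain acyl-CoA synthetase, was at 3.99 to 5.66 FPKM (median 4.71) in epiblast and 0 to 0.431 in ExE (log2 -2.29, SE 0.15, limma adjusted p = 4.64e-07). Slc5a5, the iodide carrier known from the thyroid, was at 1.63 to 4.48 in epiblast and 0.161 to 1.29 in ExE (log2 -1.26). For both genes the tissues did not overlap. Slc6a6 and Slc2a8, an intracellular glucose transporter, had log2 differences of -0.90 and -0.83, again without overlap.

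In ExE, monocarboxylate carriers and the leucine carrier stood higher. Slc16a6 was at 4.30 to 10.8 FPKM (median 6.38) in ExE and 0.115 to 1.88 (median 0.645) in epiblast, a log2 difference of 2.13 (SE 0.24, limma adjusted p = 2.33e-05). Slc16a5 was at 2.27 to 7.29 (median 2.79) in ExE and 0 to 0.961 in epiblast (log2 1.92). Slc7a5, which carries leucine and other large neutral amino acids, was at 7.41 to 17.5 (median 12.3) in ExE and 3.58 to 6.29 (median 5.23) in epiblast (log2 1.09, SE 0.20, adjusted p = 0.0011 in limma). All ExE libraries were above all epiblast libraries for these 3 genes. Slc7a8, another large neutral amino acid carrier, Slc27a4, a fatty acid carrier, Slc6a8, Slc7a1, the main arginine carrier of many cells, Slc16a13 and Slc5a3, an inositol carrier, had log2 differences of 1.31, 1.10, 0.99, 0.80, 0.78 and 0.69. Of these, Slc7a8, Slc7a1 and Slc16a13 overlapped between tissues, and Slc16a13 lost the call without either of 2 epiblast libraries (adjusted p = 0.0629 and 0.0547).

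One ExE mKO library held visceral endoderm markers at a summed 31.8 FPKM, beside 1.93 in the other ExE mKO library and at most 6.07 in the rest of the E6.5 libraries. The same library had the highest ExE level of Slc7a1 (4.09), Slc7a8 (5.96), Slc16a5 (7.29) and Slc16a6 (10.8). Without it, 22 members were called, and the log2 differences of these 4 genes were 0.61, 1.14, 1.74 and 2.03, all still called. With the WT libraries alone, 12 members were called (4 higher and 8 lower), 11 of them among the 23. The counts of these fits are not set against all genes, so they show nothing particular to the members.

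Carriers of glucose and lactate that were abundant in both tissues did not pass the test between them. Slc2a1 was at 147 to 311 FPKM in epiblast and 188 to 329 in ExE (log2 difference 0.14, SE 0.23, limma adjusted p = 0.675). Slc2a3 had means of 34.7 ± 9.32 and 43.4 ± 7.78 (SD, n = 6 each) in epiblast and ExE, and Slc16a1 had 41.1 ± 13.6 and 53.4 ± 20.1, with limma adjusted p-values of 0.286 and 0.444. The libraries of the 2 tissues overlapped for all 3 genes. Slc1a5, Slc7a6 and Slc16a3 had adjusted p-values of 0.65, 0.226 and 0.768.

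**Figure D3:**
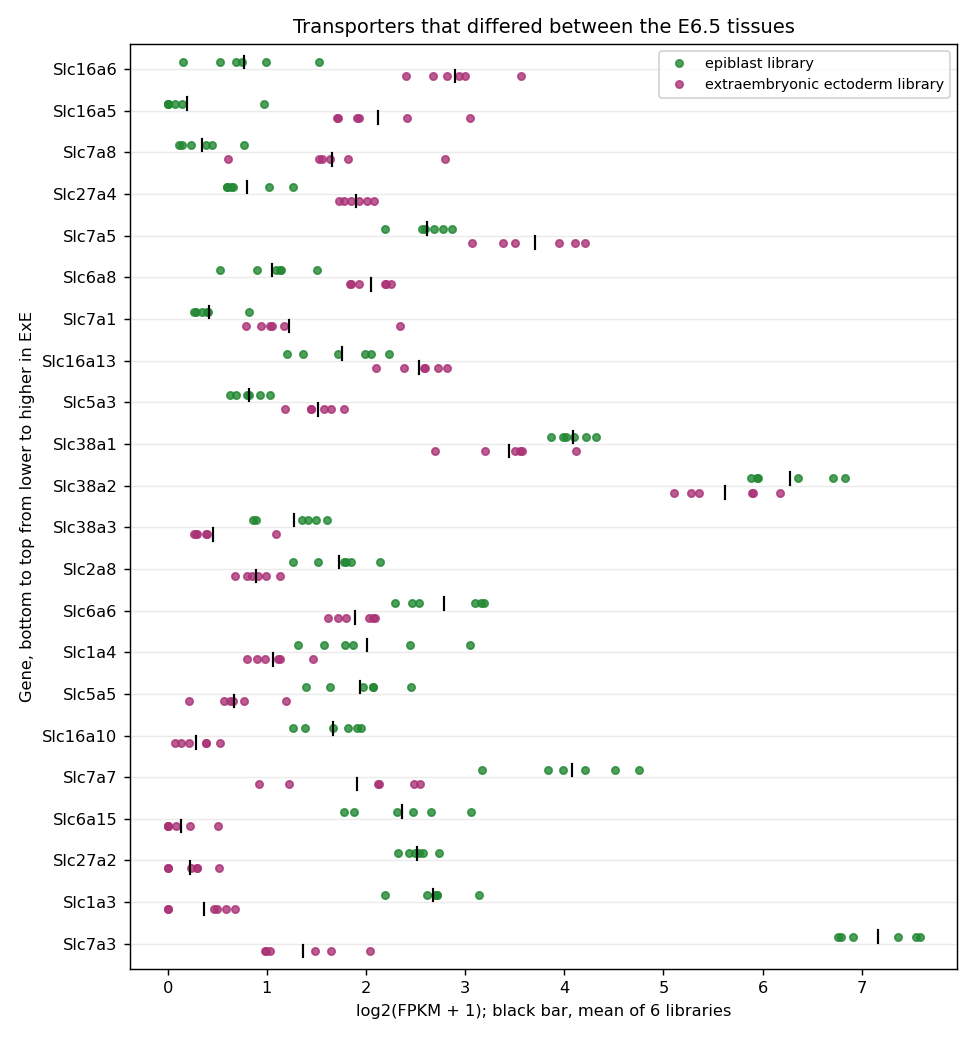
log2(FPKM + 1) (x axis) of 22 members called between the E6.5 tissues (y axis) in the 6 epiblast libraries (green) and the 6 ExE libraries (purple); black bars are means of 6 libraries. The 13 genes in the lower part are lower in ExE, with Slc7a3 at the bottom showing the largest gap, and the 9 genes in the upper part are higher in ExE.

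Genes that work with these transporters were tested between the tissues too. From a list of 46 partners and enzymes of the same nutrients, 35 were tested, and 8 were higher and 9 lower in ExE, beside 14.2% and 19.4% of all genes (median log2 difference -0.15). Those with large differences are given here. Fabp3, a cytosolic fatty acid binding protein, was at 600 ± 117 FPKM in ExE and 50.2 ± 40.6 in epiblast (SD, n = 6 each; log2 3.87, limma adjusted p = 2.85e-06). Mpc1 and Mpc2, the subunits of the mitochondrial pyruvate carrier, and Hk1, a hexokinase, were higher in ExE by 2.42, 1.53 and 1.70 on the log2 scale. Emb, a chaperone of monocarboxylate carriers, was at 46.1 ± 23.1 in ExE and 250 ± 37.6 in epiblast (log2 -2.59), whereas Nptn, another such chaperone, was higher in ExE by 1.35. Ldhb, a lactate dehydrogenase subunit, and Rragd, a GTPase of the amino acid sensing machinery at the lysosome, had log2 differences of -2.51 and -3.78.

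Between genotypes, members were called at E4.25 and at no other stage. In mKO embryos 7 of 33 members were higher and 1 was lower than in WT (4 libraries each; limma, adjusted p under 0.05 over all 9550 genes), which is 24.2% of the members beside 14.6% of all genes (14.3% higher and 0.251% lower). The median log2 difference was 0.32 over the members and 0.74 over all genes, so the whole distribution was shifted upwards in mKO. In all 8 called members the WT and mKO libraries did not overlap. This is not separate evidence, since the calls rest on the same values, and it is not set against all genes. Scaling the libraries by median ratios brought the median of all genes to 0.05, and 0 members and 0.301% of all genes then passed the threshold. An unadjusted limma p under 0.05 was then found for 12 of 34 members and for 1465 of 9302 genes. The limma adjusted p-values of the 8 members called without scaling lay between 0.0529 and 0.191, with the directions kept. The median over the members was then -0.25, with 10 of 34 members above 0, beside 23 of 33 without scaling.

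Other measures also differed between the WT and mKO libraries of this stage. Rn45s made up 21.0%, 38.6%, 68.6% and 60.5% of the summed FPKM in WT and 24.2%, 11.7%, 52.4% and 26.6% in mKO. The summed FPKM of 5 trophectoderm markers was 35.2 to 325 in WT and 263 to 1020 in mKO, and that of 4 inner cell mass and early epiblast markers was 14.5 to 18.0 and 33.2 to 79.4. For primitive endoderm (4 markers) the sums were 4.15 to 28.4 and 40.0 to 54.5. The 3 blood markers summed to 0, 1.56, 8.85 and 0 in WT replicates 1 to 4 and to 0 in every mKO library. The sums of the inner cell mass and primitive endoderm markers were thus lower in every WT than in any mKO library, while those of trophectoderm and the Rn45s shares overlapped, and the part of these values in the transporter differences was not tested. The libraries also came in 2 runs of consecutive library names, replicates 1 and 2 and replicates 3 and 4, each with both genotypes. Means in FPKM follow for WT at E3.5 (first and second table), WT at E4.25 and mKO at E4.25. They were 43.7, 7.89, 2.29 and 52.9 for Slc15a2 and 47.4, 23.0, 6.38 and 66.9 for Slc6a8. Slc7a6 had 44.5, 11.0, 6.5 and 49.1, and Slc7a6os 24.5, 10.6, 2.47 and 15.9. Slc5a11 had 22.5, 23.2, 2.07 and 13.3, and Slc5a6 15.9, 9.65, 0.565 and 6.97. Slc2a8 had 8.25, 4.53, 0.388 and 5.86. The part of developmental stage in the differences at E4.25 was not tested.

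RefSeq holds promoter windows for 6 of the 7 members that were higher in mKO than in WT at E4.25. Those of the 4 transporters among them with the largest log2 differences are shown, because these genes were called higher in mKO. So were 14.3% of all genes, and whether these genes vary together was not tested. Each sequence is the 250 bases before a gene's first listed start in GRCm38.p6, written 5′ to 3′ in the direction of the gene, with matches to the letters of a TFAP2 motif, GCCNNNGGC, in capitals. TFAP2 factors act in trophectoderm. The motif reads the same on both strands.
Slc15a2, chr16:36784963-36785212, minus strand: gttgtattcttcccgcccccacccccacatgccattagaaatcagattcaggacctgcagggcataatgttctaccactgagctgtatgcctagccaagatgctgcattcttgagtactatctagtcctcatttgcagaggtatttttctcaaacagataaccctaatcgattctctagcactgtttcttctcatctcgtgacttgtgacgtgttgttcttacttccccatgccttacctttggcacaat
Slc5a11, chr7:123214616-123214865, plus strand: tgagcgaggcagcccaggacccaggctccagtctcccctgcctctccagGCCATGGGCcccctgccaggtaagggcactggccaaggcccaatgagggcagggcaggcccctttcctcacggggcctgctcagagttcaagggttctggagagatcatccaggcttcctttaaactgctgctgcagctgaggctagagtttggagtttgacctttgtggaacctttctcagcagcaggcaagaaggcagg
Slc5a6, chr5:31048563-31048812, minus strand: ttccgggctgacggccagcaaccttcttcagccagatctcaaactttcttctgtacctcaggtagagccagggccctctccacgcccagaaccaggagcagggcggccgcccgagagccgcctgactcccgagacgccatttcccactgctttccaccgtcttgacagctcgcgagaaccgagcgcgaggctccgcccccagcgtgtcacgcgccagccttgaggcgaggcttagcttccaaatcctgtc
Slc7a6, chr8:106168604-106168853, plus strand: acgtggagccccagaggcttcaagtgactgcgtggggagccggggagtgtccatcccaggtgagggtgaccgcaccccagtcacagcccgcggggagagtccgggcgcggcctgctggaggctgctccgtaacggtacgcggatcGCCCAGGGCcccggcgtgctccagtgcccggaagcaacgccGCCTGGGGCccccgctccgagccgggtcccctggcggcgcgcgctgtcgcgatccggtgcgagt
The Slc7a6 window held 2 matches and 30 CpG, the Slc5a11 window 1 match and 2 CpG, and the windows of Slc5a6 and Slc15a2 no match, with 20 and 4 CpG. The windows of Slc7a6os and Slc2a8, not shown, held no match either, with 23 and 7 CpG. Among 32851 promoter windows of this length 13.7% held the motif, as did 16 of 96 windows of members (16.7%), so the share in members was near that of all promoters. GC content was 45.2% in Slc15a2 and 74.0% in Slc7a6, beside a median of 52.4% in all windows and 60.6% in the 60 windows of kept members. The letters GGAATG, a TEAD motif, were searched on both strands and stood in 9.38% of member windows and 12.6% of all windows, and in none of the 4 sequences shown. The amino acid response element TGATGNAA, also searched on both strands, stood in 3.12% and 3.45% of windows, the members being Slc7a11 and Slc7a7. A match is a string of letters and not a shown binding site.

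Slc15a2, which takes up dipeptides and tripeptides with protons, had the largest log2 difference of the called members at E4.25, higher in mKO than in WT. Its WT libraries were at 1.27, 0.608, 0.0964 and 7.18 FPKM, the mHet sample at 27.8 and the mKO libraries at 102, 35.0, 30.7 and 44.2. The lowest mKO library was thus above the highest WT library, and the mHet sample lay between the groups. The log2 difference was 4.33 (SE 0.67, limma adjusted p = 0.00255), and it was 4.99 in the first run and 3.66 in the second. Slc6a8, the creatine carrier, was at 5.14, 3.00, 1.87 and 15.5 in WT, 39.4 in mHet and 51.8, 55.9, 71.8 and 88.0 in mKO. Again all mKO libraries were higher, by 3.51 on the log2 scale (SE 0.66, limma adjusted p = 0.0064), with 3.47 and 3.55 within the runs.

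Slc7a6 was at 6.93, 3.79, 1.24 and 14.0 FPKM in WT, 41.9 in mHet and 63.5, 63.7, 27.3 and 41.7 in mKO (log2 difference 2.99, SE 0.67, limma adjusted p = 0.0136). Its neighbour Slc7a6os was at 4.21, 0.0145, 0.290 and 5.37 in WT, 5.46 in mHet and 22.7, 14.3, 12.0 and 14.5 in mKO (log2 2.68, limma adjusted p = 0.014). Both genes of this pair on chromosome 8 were higher in every mKO library than in any WT library, while the mHet sample was near mKO for Slc7a6 and near the highest WT library for Slc7a6os. Slc5a11 was at 1.77, 1.13, 0 and 5.39 in WT, 8.50 in mHet and 13.8, 18.8, 9.16 and 11.4 in mKO (log2 2.48, limma adjusted p = 0.0132). Slc5a6 was at 0.336, 0.695, 0.0121 and 1.21 in WT, 3.65 in mHet and 5.75, 9.15, 4.09 and 8.87 in mKO (log2 2.35, SE 0.42, limma adjusted p = 0.00489). The inositol and the vitamin carrier both had their mHet value between the WT and mKO libraries. Slc2a8 was at 0, 0.717, 0.274 and 0.560 in WT, 0.136 in mHet and 1.99, 6.01, 2.89 and 12.5 in mKO (log2 2.08, limma adjusted p = 0.0126), with the mHet sample at the WT level. Without the values of Rn45s and with the rest rescaled, Slc2a8, Slc5a11 and Slc7a6os no longer passed (limma adjusted p = 0.0559, 0.0636 and 0.0655), while their log2 differences were 2.13, 2.51 and 2.66.

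Slc40a1, which encodes the iron exporter ferroportin, was the 1 member called lower in mKO at E4.25. Its WT means were 0.572 and 0.0763 FPKM in the first and second E3.5 tables, beside 4.39 in WT and 0.186 in mKO at E4.25. It was at 9.81, 5.55, 1.05 and 1.13 FPKM in WT, 0.146 in mHet and 0, 0.593, 0.151 and 0 in mKO. The 2 WT libraries of the first run were well above those of the second, and all 4 were above mKO. The summed FPKM of 8 visceral endoderm markers was 22.1, 23.6, 0.266 and 1.44 in the same WT libraries, 1.66 in mHet and 1.64 to 6.95 in mKO, with Ttr and Rbp4 at 0 in all of these libraries. The part of these values in the Slc40a1 difference was not tested. The log2 difference was -1.85 (SE 0.49, limma adjusted p = 0.024), against an upward shift of 0.74 over all genes, and it was -2.74 and -0.96 within the runs. Leaving out WT replicate 2, mKO replicate 1 or mKO replicate 4 ended the call (adjusted p = 0.068, 0.0655 and 0.0772), and leaving out WT replicate 2 ended that of Slc7a6os too (0.0501).

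**Figure D4:**
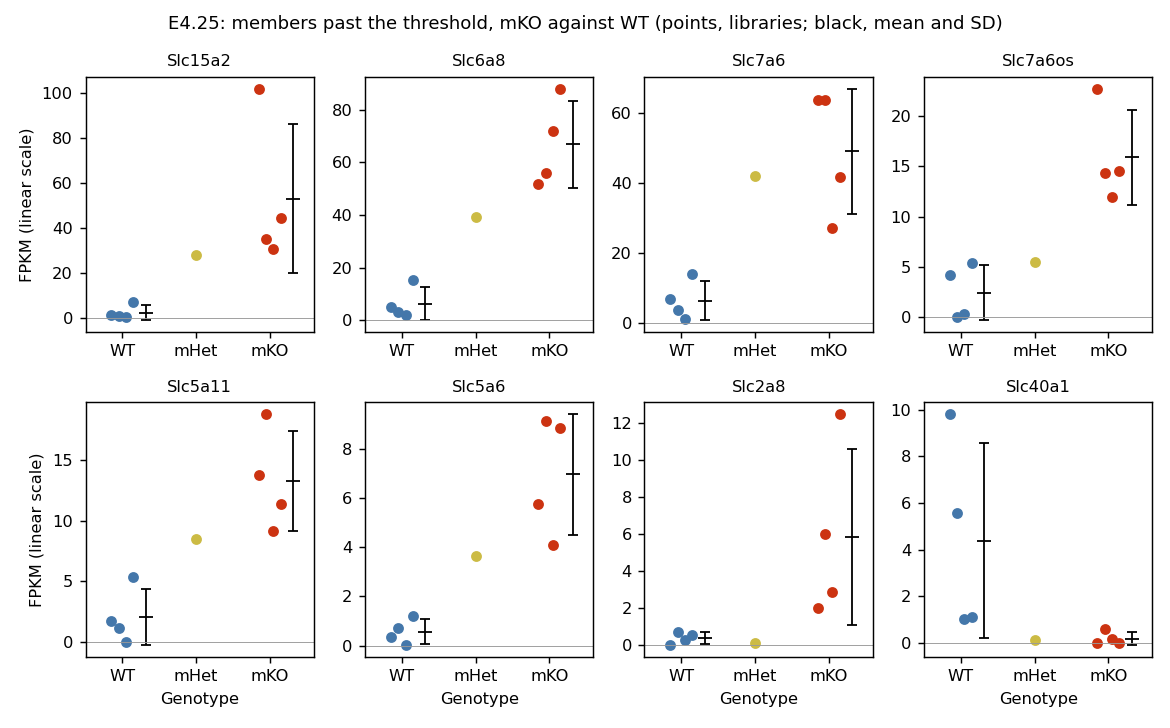
FPKM (y axes, linear, each panel with its own range) of the 8 members called at E4.25 in WT (blue, 4 libraries), mHet (yellow, 1 sample) and mKO (red, 4 libraries); black marks give the mean and SD. In 7 panels every mKO point is above every WT point, and in the Slc40a1 panel every WT point is above every mKO point.

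Other members varied widely among the WT libraries of E4.25. Slc2a1 was at 122, 32.8, 19.3 and 7.91 FPKM in WT and 14.7, 32.8, 6.68 and 9.97 in mKO (limma adjusted p = 0.341). Slc38a2 was at 59.1, 28.8, 3.46 and 1.43 in WT and 6.14, 17.5, 6.64 and 1.46 in mKO. Slc7a3 was at 24.7, 14.5, 0.209 and 1.01 in WT and 1.48, 3.82, 5.64 and 1.76 in mKO. These 3 genes, all high in E6.5 epiblast and, except Slc7a3, also in ExE, were highest among the WT libraries in replicates 1 and 2. The same replicates had the highest WT sums of the 5 E6.5 epiblast markers, 67.1 and 38.1 FPKM, beside 0.0433 and 20.0 in replicates 3 and 4 and 21.0 to 56.1 in mKO. This order was not particular to epiblast markers. The E6.5 ExE markers summed to 58.1, 30.2, 1.09 and 16.3 in WT replicates 1 to 4 and to 22.2 to 49.0 in mKO. Visceral and primitive endoderm markers were also highest in WT replicates 1 and 2, and trophectoderm and inner cell mass markers were not. The part of these sums in the gene levels was not tested. Slc7a8 was at 30.9, 9.30, 0 and 2.12 in WT and 1.80, 2.13, 0.865 and 0.220 in mKO (limma adjusted p = 0.193), and Slc2a3 at 29.1, 10.1, 0 and 9.37 in WT and 31.2, 38.3, 10.7 and 37.6 in mKO (limma adjusted p = 0.137). Among the partner genes, 4 of 30 were higher and none lower in mKO at E4.25, a share near the 14.3% of all genes that were higher. They were Fabp5, a fatty acid binding protein (log2 3.07), Gss, glutathione synthetase (2.36), Rragd (2.12) and Nedd4l, a ubiquitin ligase of membrane carriers (1.61). The list median was 0.81.

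In the other 15 genotype comparisons and in the test of whether the mKO effect differed between the E6.5 tissues, 0 members passed limma's threshold, beside 0.0539% of all genes or fewer. For mKO, the share of all genes was 0.0102% in oocytes labelled KO (0.0% higher and 0.0102% lower), 0.0116% at the 1-cell (0.0116% lower), 0.00969% at the late 2-cell (0.00969% lower) and 0.012% at the 8-cell stage (0.012% lower). In mKO blastocysts at E3.5 it was 0.0407% in the first table (0.0203% higher and 0.0203% lower) and 0.0539% in the second (0.0539% lower). In epiblast it was 0.00907% for mKO (0.00907% lower) and 0.0272% for mHet (0.0181% higher and 0.00907% lower), and in the other comparisons it was 0.0%. At an unadjusted limma p under 0.05 there were 0 members in both oocyte comparisons (11 of 9818 genes for KO, 7 for Het). Both 1-cell comparisons also gave 0 (214 of 8604 genes for mKO, 72 for mHet). At the late 2-cell stage mKO and mHet gave 1 of 35 members each (780 and 303 of 10322 genes). For mKO at the 8-cell stage it was 1 of 24 (334 of 8319 genes). There were 8 of 36 members for mKO and 3 for mHet in the first E3.5 table, beside 539 and 762 of 9834 genes. The second gave 2 and 0 of 29, beside 534 and 150 of 9273 genes. Epiblast gave 2 and 1 of 36 (490 and 393 of 11028 genes) and ExE 4 and 1 (854 and 650 genes). The difference of the mKO effects gave 3 (376 genes).

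Slc15a2 was lower, not higher, in mKO blastocysts at E3.5, without passing the threshold. In the first table it was at 21.7 and 65.7 FPKM in WT, 17.2 and 34.0 for mHet and 6.88 and 4.17 for mKO (log2 difference -2.61, SE 0.66, limma adjusted p = 0.434). In the second it was at 10.3, 12.4, 7.73, 1.5 and 7.53 in WT, 1.90, 22.0, 27.9, 14.5 and 0.862 for mHet and 0.822, 0.944, 1.11, 0.574 and 0.955 for mKO (log2 -2.05, SE 0.65, limma adjusted p = 0.503). In both tables every WT library was above every mKO library. In the first table the mKO libraries had a summed FPKM of Y-linked genes of 0.101 and 0.152 and the 4 other libraries 43.5 to 84.7, so sex and the mKO group cannot be told apart there. In the second table the log2 difference with a sex term was -1.95. Without WT replicate 1 of the first table the difference was -3.39 (limma adjusted p = 0.0263), a fit with 1 WT library that is assumed to vary like the other groups. The E3.5 and E4.25 differences, of opposite sign, come from separate tables and their contrast was not tested.

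**Figure D5:**
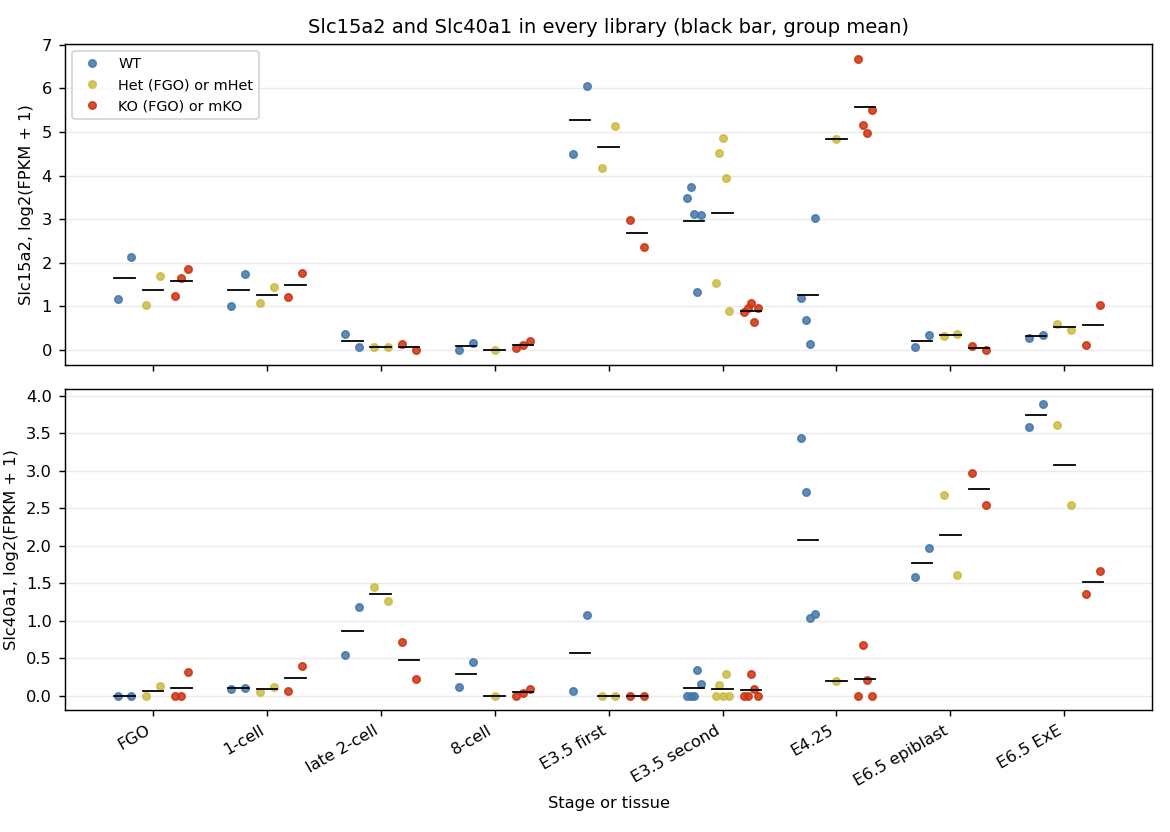
log2(FPKM + 1) of Slc15a2 (upper panel) and Slc40a1 (lower panel) in every library, by stage or tissue (x axis) and genotype (blue WT, yellow Het or mHet, red KO or mKO); black bars are group means of the log2 values. Slc15a2 is lower in mKO than in WT in both E3.5 tables and higher at E4.25, and Slc40a1 is lower in mKO at E4.25 and in ExE.

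Slc40a1 also had the smallest p among members in ExE. It was at 11.0 and 13.8 FPKM in WT, 11.2 and 4.80 for mHet and 1.56 and 2.16 for mKO (log2 difference -2.22, SE 0.43, limma adjusted p = 0.204). In epiblast it was at 1.99 and 2.91 in WT, 5.40 and 2.05 for mHet and 6.80 and 4.82 for mKO (log2 0.98, limma adjusted p = 1.0). The mKO libraries were thus below WT in ExE and above WT in epiblast. The difference between the 2 effects was -3.20 (SE 0.61, limma adjusted p = 0.972) and did not pass the threshold. At stages up to E3.5 Slc40a1 was at most 1.72 FPKM in every library.

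The remaining members with the smallest p are given as values. In the first E3.5 table Slc7a8 was at 2.81 and 2.67 FPKM in WT, 0.565 and 0.219 for mHet and 0.631 and 0.407 for mKO (limma adjusted p = 0.402 for mKO and 0.502 for mHet). Slc2a3 in the second E3.5 table was at 13.1, 13.6, 18.7, 17.3 and 22.8 in WT and 7.52, 5.05, 10.8, 6.97 and 15.3 in mKO, with 1 mKO library inside the WT range (log2 -0.90, limma adjusted p = 0.607). Slc16a1 in 8-cell embryos was at 9.08 and 7.66 in WT, 5.08 in the mHet sample and 2.02, 4.85 and 4.64 in mKO (log2 -1.01 for mKO, limma adjusted p = 0.999). At the late 2-cell stage Slc16a11 had means of 0.773 in WT and 2.52 in mKO (log2 1.09, limma adjusted p = 0.599) and Slc1a1 18.8 and 12.3 (log2 -0.60, 0.674). Slc6a15 had means of 21.7 in WT and 29.9 in mKO at the 1-cell stage (log2 0.45, limma adjusted p = 1.0). Slc15a5 had means of 6.02 in WT and 2.96 in mHet at the late 2-cell stage, and Slc27a1, a fatty acid carrier, 0.509 and 1.54 in epiblast, with limma adjusted p-values of 1.0. In oocytes no member had a limma p below 0.252, the smallest being Slc5a10 at 0.351 in WT and 1.06 in Het. The glycine carrier Slc6a9 stood at 18.8 and 18.1 in WT, 21.6 and 28.8 for Het and 17.8, 35.5 and 16.1 for KO oocytes, with overlapping groups.

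Members on the X chromosome included Slc6a8, Slc7a3 and Slc6a14, a broad carrier of neutral and cationic amino acids. Slc6a14 was highest at E4.25, at 22.1, 8.78, 0 and 4.22 FPKM in WT and 6.77, 6.62, 2.69 and 1.47 in mKO, with overlapping groups. Only Slc6a8 of these was called between genotypes, at E4.25, and with a term for sex its log2 difference there was 3.52. Reads of some members cannot be told apart from those of overlapping genes, since strand use is not given: Slc5a6 overlaps Atraid, Slc16a6 Arsg, Slc6a9 Ccdc24, Slc7a7 Oxa1l, Slc16a3 Csnk1d and Slc5a3 Mrps6.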

How the data were processed

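Smart-seq2 libraries of polyadenylated RNA from mouse oocytes and embryos were read on the DNBSEQ-T7 instrument, per the labels' protocols. The authors deposited 8 tables of FPKM per gene and library, per the file headers. The builds mm9 and hg19, without roles, and the tools HISAT2 2.2.1, HTSeq 0.6.0 and Trim Galore 0.4.2 are named per the submitters' processing notes. The tool that computed FPKM, its annotation, strand use and the treatment of multi-mapping reads are, in the sources used here, not given. Since FPKM keep no totals, depth and counting intervals are unknown. The treatment protocol names GSK343 and DMSO, which appear in no label of the samples used.

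A gene was kept in a table where 2 or more of its libraries reached 1 FPKM. Within each table limma 3.58.1 (R 4.3.3; lmFit, eBayes with trend) was fitted on log2(FPKM + 1), a pseudocount of 1, over all genotypes, two-sided, with Benjamini-Hochberg adjustment over all kept genes and a threshold of 0.05. There were 18 comparisons: 16 between genotypes, 1 between the E6.5 tissues and 1 of the difference of their mKO effects. The scripts were tested on simulated data. E6.5 epiblast columns could be matched to a genotype and not to a numbered replicate. The single mHet samples of the 8-cell stage and E4.25 were given as values.

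Alternatives were a pseudocount of 0.1, no filter, median ratio scaling, removal of Rn45s with rescaling, the 2 groups alone, a sex term, a replicate block, WT libraries alone and each library left out. A term for the library run (FGO, 8-cell and E4.25) was chosen after seeing the data. The members, the 46 partner genes and the 11 marker lists were chosen with earlier results of these data known. Genes named in the text are, by rule, the 5 members with the highest mean in each table, the members called (at most 15 a direction between tissues and 10 between genotypes) or else the 3 with the smallest p, the highest member of each family, the 15 with the largest ratio between stages, the X-linked members and the symbols that are no transporters. A few others are named after their values were seen. All 105 symbols matched the RefSeq table, and 74 of them had a promoter window. Results of some symbols are not reported here.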

Additional observations from a re-analysis of the deposited data

Results flagged for a closer look

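Of 135 checks of a group of 4 or 5 libraries for a library far from the others, 5 were positive. Chance gives about 1 in 20 of such groups. In the second E3.5 table, Slc15a2 was at 1.5 FPKM in WT replicate 6, the other WT libraries being at 7.53 to 12.4. Slc7a6 was at 16.3 in WT replicate 7 of that table and at 8.97 to 10.4 in the others. At E4.25, Slc7a1 was at 3.47 in WT replicate 1 and at 0.275 to 0.519 in the others. Slc2a3 was at 10.7 in mKO replicate 3 of that stage and at 31.2 to 38.3 in the others, and Slc7a5 was at 2.52 in mKO replicate 2 and at 0.488 to 0.655 in the others.

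For 2 genes the mKO effect had opposite signs in 2 settings, with all libraries of each pair of groups apart. The log2 effect of mKO on Slc15a2 at E4.25 was higher than that in the second E3.5 table by 6.38, and this difference was not tested. For Slc40a1 the effect in ExE minus that in epiblast was -3.2 (limma adjusted p = 0.972 for the interaction).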

How the results depend on the processing

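Of 1074 values of named genes under an alternative, 1019 kept their direction and their side of the threshold, 52 lost the call, 2 gained it and 1 changed sign: Slc15a2 in the first E3.5 table, for mKO with a sex term, at 5.53 (SE 5.23), a fit in which sex and group are nearly the same split. Of 235 counts, 226 stayed within 1.5 times. At E4.25 the 8 called members became 3 without the filter, 0 with median ratio scaling and 5 with Rn45s removed, and 6 to 9 with single libraries left out. Between the E6.5 tissues the 23 became 35 without the filter, 12 with WT alone and 20 to 25 with single libraries left out. These counts at E4.25 and between tissues are not set against all genes here, and without the filter more members are tested. In the first E3.5 table leaving out single libraries gave 0 to 2 for mKO (2 without WT replicate 1) and 0 to 3 for mHet (3 without WT replicate 2). These E3.5 fits leave 1 WT library, assumed to vary like the other groups. Epiblast mHet gave 1 without the filter. All other genotype comparisons gave 0 to 0 with single libraries left out. By percentile among the kept genes, 20 members instead of 13 were highest in blastocysts.

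Same-numbered libraries share only a number, since no label ties it to an animal, litter or day. Their deviations from group means correlated at 0.515 to 0.557 at the 1-cell stage and 0.213 to 0.257 at the late 2-cell stage. The range was 0.155 to 0.571 in the first E3.5 table and -0.406 to 0.71 elsewhere. At the 1-cell and late 2-cell stages and in the first E3.5 table every library correlated best with its own number. These groups hold 2 libraries each, whose deviations mirror each other. Each correlation is thus counted for both numbers, and the matches are not separate. With the replicate block, 9 members were called at E4.25, Slc2a3 being added, and the block gave 0 in the other genotype comparisons in which it was run. No paired analysis was possible for the epiblast and the tissue comparison because their columns carry no matched numbers. With FPKM alone, no value can be weighted by depth, and with 2 libraries a group only large differences pass.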
